A study of Homo sapiens with 8 samples.

Results

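The cytokine *LIF* (leukemia inhibitory factor) and the IL-6 family that it belongs to were followed in breast epithelial cells that overexpress the long noncoding RNA *MALINC1*. The members were 10 genes chosen by symbol: the ligands *LIF*, *IL6*, *IL11* and *CLCF1*, the receptor chains *LIFR*, *OSMR*, *IL6R* and *IL6ST*, the transcription factor *STAT3* and the feedback inhibitor *SOCS3*. The table of 13842 genes held 8 of them, and *IL6* and *IL11* were not analysed here. RNA-seq had been performed on 8 libraries, with 2 libraries in each of 4 groups, to learn how *MALINC1* alters the transcriptome of normal and pre-invasive cells.

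The groups were MCF10A pLOC-empty, MCF10A pLOC-*MALINC1*, DCIS.COM pLOC-empty and DCIS.COM pLOC-*MALINC1*. MCF10A is a non-malignant human breast epithelial line, and DCIS.COM is a line of the same MCF10 lineage that models ductal carcinoma in situ. All cells carried the lentiviral pLOC vector, with or without *MALINC1*, and had been selected with blasticidin, so the controls share the vector and the drug. Both lines grew in DMEM/F-12 with horse serum, but the MCF10A medium alone also had EGF, hydrocortisone, insulin and cholera toxin. Cell line and medium therefore cannot be told apart in a comparison between the lines. Whether the transduced cells were pools or clones, and whether the 2 libraries of a group came from separate cultures, is not stated in the sources used here, so the p-values measure only the spread between these libraries.

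Cytokines of the IL-6 family act through receptor complexes that contain the shared signal-transducing chain gp130, encoded by *IL6ST*. LIF binds gp130 paired with LIFR, oncostatin M can bind gp130 paired with OSMR, IL-6 first binds IL6R, and CLCF1 acts through a complex of gp130 and LIFR with the CNTF receptor. The receptors activate JAK kinases, which phosphorylate STAT3, and STAT3 induces *SOCS3*, whose protein binds gp130 and JAKs and shuts the signal off. In the mammary gland LIF and STAT3 are best known for starting involution after weaning, and in breast tumors the pathway is linked to inflammation.

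Activated STAT3 binds DNA at palindromes of the form TTCNNNGAA, so the 250 bases before annotated gene starts (RefSeq, GRCh38.p14) were searched for these letters. The search on both strands finds the same sites, since the motif is its own reverse complement. Windows were found for 8 of the 10 members, 11 windows in all, without *LIF* and *CLCF1*. A match was present in 2 of the 11 windows, both of *LIFR* (its window chr5:38556647-38556896 had none), and in 6.57% of all 35116 windows of this length. Both are shown on the minus strand, 5′ to 3′, with the match in capitals, beside 1 window each of *OSMR* on the plus strand and *SOCS3* on the minus strand, as the genes whose responses ran in opposite directions in the 2 lines, and in which these letters were not found.
LIFR, chr5:38595406-38595655: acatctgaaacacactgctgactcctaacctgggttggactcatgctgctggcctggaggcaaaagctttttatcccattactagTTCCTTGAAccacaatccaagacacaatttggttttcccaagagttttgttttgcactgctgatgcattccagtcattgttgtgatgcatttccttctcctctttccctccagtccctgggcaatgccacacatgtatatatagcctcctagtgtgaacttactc
LIFR, chr5:38557468-38557717: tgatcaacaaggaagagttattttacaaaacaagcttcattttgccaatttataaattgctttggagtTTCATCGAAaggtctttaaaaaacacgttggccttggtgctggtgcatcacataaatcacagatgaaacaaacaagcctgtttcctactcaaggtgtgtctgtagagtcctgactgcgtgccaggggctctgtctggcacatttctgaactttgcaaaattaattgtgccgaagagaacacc
OSMR, chr5:38845762-38846011: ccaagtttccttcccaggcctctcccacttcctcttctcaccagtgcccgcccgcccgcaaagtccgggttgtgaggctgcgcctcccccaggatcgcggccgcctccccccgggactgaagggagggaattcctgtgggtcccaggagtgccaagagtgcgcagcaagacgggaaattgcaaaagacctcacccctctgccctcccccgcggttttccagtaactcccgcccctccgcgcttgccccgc
SOCS3, chr17:78360926-78361175: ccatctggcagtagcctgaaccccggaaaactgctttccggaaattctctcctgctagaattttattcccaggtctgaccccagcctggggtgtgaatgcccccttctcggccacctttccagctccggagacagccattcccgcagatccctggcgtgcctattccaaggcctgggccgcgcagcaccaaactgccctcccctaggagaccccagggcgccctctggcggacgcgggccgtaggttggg
The AP-1 motif TGAGTCA (or TGACTCA on the other strand) was found in 1 member window, that of *IL11*, against 4.20% of all windows. These matches describe letters and not bound sites, and their absence from a window says nothing of STAT3 or AP-1 at that gene.

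Reads counted on genes ranged from 20604377 to 37550457 per library, and 8.22 to 15.7% of them fell on the 7SL RNA genes *RN7SL1* and *RN7SL2*. *MALINC1* itself was at 1.07 and 1.58 CPM (counts per 1000000 reads) in MCF10A pLOC-empty and 13.3 and 11.8 CPM in MCF10A pLOC-*MALINC1*, a log2 change of 3.27 (standard error, SE, 0.19, adjusted p = 3.97e-08). In DCIS.COM it was at 1.42 and 1.22 CPM with the empty vector and 24.5 and 19.2 CPM with *MALINC1*, a log2 fold change of 4.04 (SE 0.19, adjusted p = 6.93e-09). Between the pLOC-*MALINC1* groups it was higher in DCIS.COM, by 0.79 on the log2 scale (SE 0.19, adjusted p = 0.00187). The responses of the 2 lines are thus not compared at the same *MALINC1* level. All 9 markers listed for basal breast epithelium, which both lines are, were in the table. Their summed level was 28790 to 39230 CPM in MCF10A and 6094 to 7254 CPM in DCIS.COM. The sum does not stand for each marker. With the empty vector, *KRT6A* (-6.62), *KRT14* (-5.46), *KRT17* (-3.36), *KRT5* (-2.52) and *CDH1* (-1.55) were lower in DCIS.COM on the log2 scale. *TP63* (3.51), *EPCAM* (2.17), *ITGB4* (1.66) and *ITGA6* (0.68) were higher there. Of the markers of other cell types, 1 of 8 for fibroblasts, 2 of 6 for leukocytes and 1 of 4 for endothelium were in the table, and the others were not used here. RNA from bulk cultures cannot separate fewer cells of a kind from less RNA per cell.

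In MCF10A cells, *LIF* was the member that rose most with *MALINC1*, and *OSMR* and *SOCS3* rose with it, while *IL6ST* fell slightly. In DCIS.COM cells, *LIF*, *LIFR*, *OSMR*, *IL6ST*, *STAT3* and *SOCS3* all fell and *CLCF1* and *IL6R* rose. The responses of *LIF*, *OSMR* and *SOCS3* thus had opposite signs in the 2 lines, and each difference passed the test. Every test below is a limma fit across all 13842 genes with Benjamini-Hochberg adjustment, and called genes had an adjusted p below 0.01 with more than 2-fold change. An exact permutation test of 2 libraries against 2 cannot give a two-sided p below 0.333 and was not used.

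**Figure D1:**
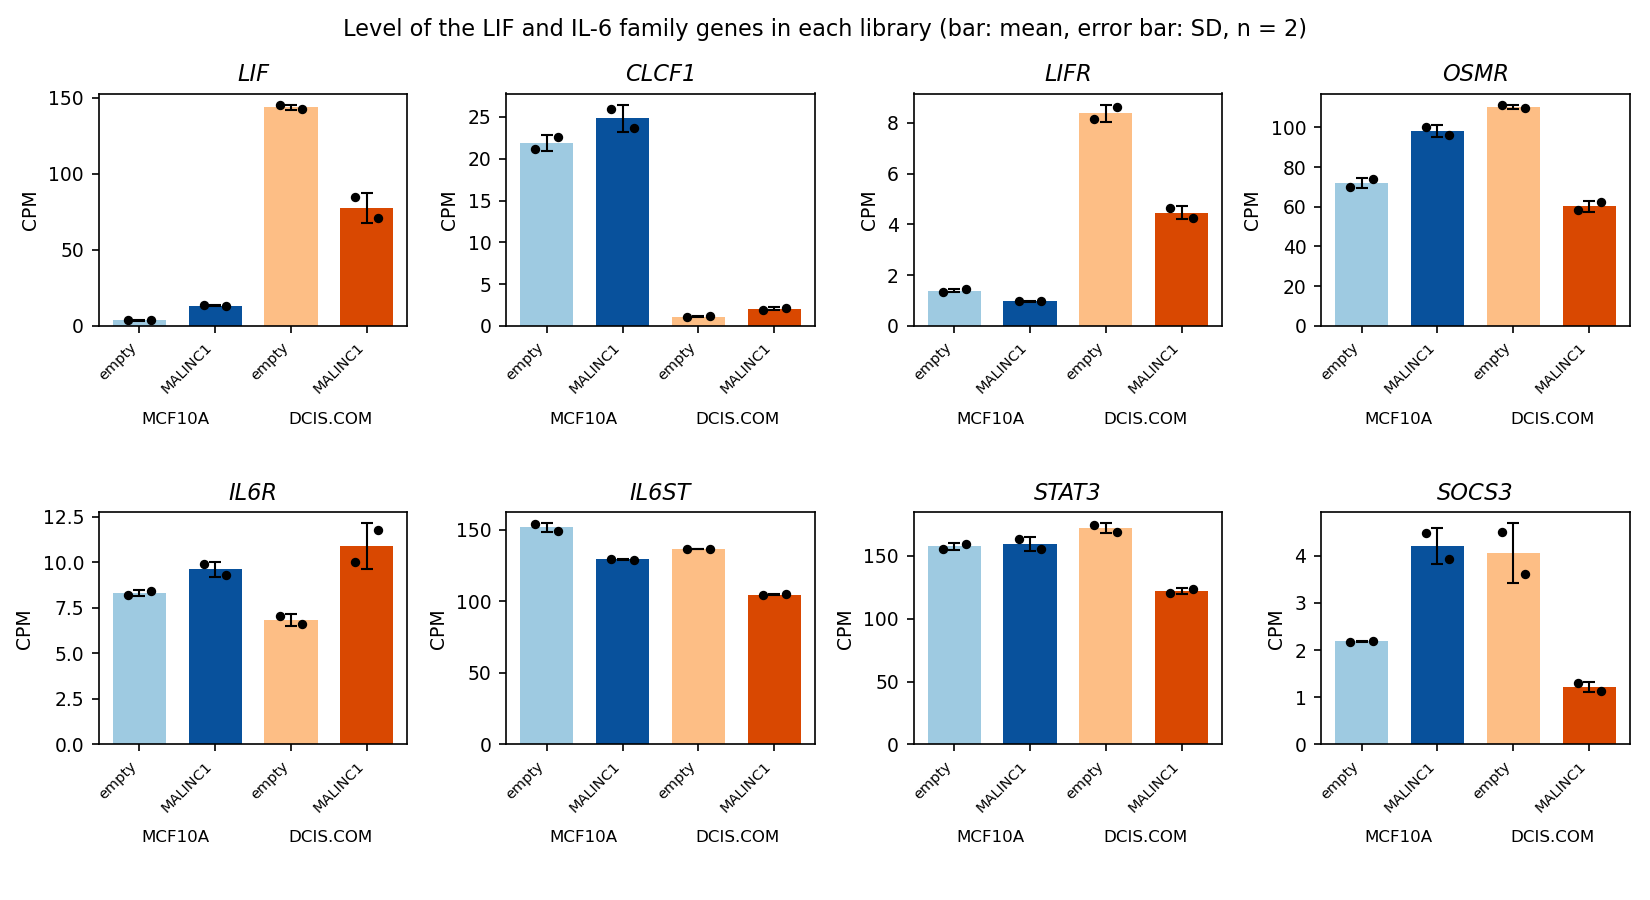
Level of the 8 members in CPM, 1 panel per gene with an axis from 0. Bars are means of 2 libraries, error bars are SD and points are single libraries. *LIF* is near 144 CPM in DCIS.COM pLOC-empty and near 3.82 CPM in MCF10A pLOC-empty, and *SOCS3* rises with *MALINC1* in MCF10A and falls in DCIS.COM.

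Among the ligands, *LIF* changed most across the libraries, from 3.59 to 145 CPM. Its GRCh37 position is chromosome 22, minus strand, 30636442 to 30642748, and 86 and 83 bases of its exons overlap the antisense genes *LIF-AS1* and *LIF-AS2*. In MCF10A pLOC-empty *LIF* was at 3.59 and 4.06 CPM (102 and 90 reads), and in MCF10A pLOC-*MALINC1* at 13.5 and 13.0 CPM (483 and 341 reads). Both *MALINC1* libraries lay above both controls, by a log2 fold change of 1.79 (SE 0.083, adjusted p = 6.19e-09). In DCIS.COM pLOC-empty *LIF* was at 145 and 143 CPM, and in DCIS.COM pLOC-*MALINC1* at 84.8 and 70.8 CPM. Here both *MALINC1* libraries lay below both controls, by a log2 fold change of -0.89 (SE 0.083, adjusted p = 3.14e-06), which is under 2-fold. The response in DCIS.COM minus that in MCF10A was -2.69 on the log2 scale (SE 0.12, adjusted p = 3.06e-09).

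*CLCF1*, which encodes cardiotrophin-like cytokine factor 1, was high in MCF10A and low in DCIS.COM. It lies on chromosome 11, minus strand, from 67131639 to 67141648, and shares 61 exonic bases with a readthrough gene on the same strand. MCF10A pLOC-empty had 21.2 and 22.6 CPM and MCF10A pLOC-*MALINC1* had 26.0 and 23.7 CPM. These groups did not overlap, but the log2 fold change of 0.18 (adjusted p = 0.219) did not pass, with a 95% interval of -0.08 to 0.44. DCIS.COM pLOC-empty had 1.05 and 1.17 CPM from 21 and 23 reads, and DCIS.COM pLOC-*MALINC1* had 1.96 and 2.17 CPM from 65 and 71 reads. The groups were separate, with a log2 fold change of 0.90 (SE 0.12, adjusted p = 6.54e-05). The response was larger in DCIS.COM by 0.71 on the log2 scale (adjusted p = 0.00399), a call that was lost when 6 of the 8 libraries were left out in turn (adjusted p up to 0.0271) and with log2(CPM + 1) or voom (0.0266 and 0.0398).

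The receptor chains moved in different directions. *LIFR*, the LIF receptor chain, lies on chromosome 5, minus strand, from 38474770 to 38608456, and 629 of its exonic bases overlap the antisense gene *LIFR-AS1*. It was at 1.35 and 1.44 CPM in MCF10A pLOC-empty and 0.963 and 0.978 CPM in MCF10A pLOC-*MALINC1*, from 24 to 37 reads per library. Both *MALINC1* libraries were lower, but the log2 fold change of -0.52 (95% interval -0.85 to -0.19, adjusted p = 0.0117) missed the threshold. In DCIS.COM it was at 8.14 and 8.62 CPM with the empty vector and 4.64 and 4.27 CPM with *MALINC1*. The 2 groups were separate and *LIFR* fell by 0.91 on the log2 scale (SE 0.15, adjusted p = 0.000364). The difference between the lines was -0.39 (95% interval -0.85 to 0.08, adjusted p = 0.153) and did not pass.

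*OSMR*, the oncostatin M receptor chain, lies on the plus strand of chromosome 5 from 38845960 to 38945698, with 229 exonic bases shared with *RICTOR* on the opposite strand. MCF10A pLOC-empty had 70.1 and 73.8 CPM and MCF10A pLOC-*MALINC1* had 100.1 and 95.9 CPM. The *MALINC1* libraries were the higher pair, by a log2 fold change of 0.45 (SE 0.044, adjusted p = 4.43e-06). DCIS.COM pLOC-empty had 111 and 109.5 CPM and DCIS.COM pLOC-*MALINC1* had 58.2 and 62.2 CPM. In this line the *MALINC1* libraries were the lower pair, by a log2 fold change of -0.88 (SE 0.044, adjusted p = 1.32e-08). The response in DCIS.COM minus that in MCF10A was -1.32 on the log2 scale (adjusted p = 6.10e-09).

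*IL6R*, the receptor chain that binds IL-6 (chromosome 1, plus strand, 154377669 to 154441926), stayed within 6.61 to 11.8 CPM over all libraries. In MCF10A it was at 8.17 and 8.44 CPM with the empty vector and 9.91 and 9.29 CPM with *MALINC1*, a log2 fold change of 0.21 (95% interval -0.02 to 0.44, adjusted p = 0.118). In DCIS.COM it was at 7.07 and 6.61 CPM and at 10.0 and 11.8 CPM, respectively. Only the DCIS.COM change passed, at 0.67 on the log2 scale (SE 0.11, adjusted p = 0.000254), and the difference of 0.46 between the 2 responses had an adjusted p of 0.0228 and did not pass.

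*IL6ST*, the gene of gp130 (chromosome 5, minus strand, 55230923 to 55290850, with 797 exonic bases overlapping an antisense lncRNA), was high in every library. In MCF10A it was at 154 and 149 CPM with the empty vector and 129 and 129 CPM with *MALINC1*. In DCIS.COM it was at 137 and 136 CPM with the empty vector and 104 and 105 CPM with *MALINC1*. The *MALINC1* libraries were lower in both lines, with a log2 fold change of -0.23 (adjusted p = 7.97e-05) in MCF10A and -0.38 (adjusted p = 1.25e-06) in DCIS.COM. The difference between these responses was -0.15 (adjusted p = 0.0139) and did not pass.

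*STAT3*, the transcription factor of the pathway (chromosome 17, minus strand, 40465342 to 40540558), had 155 and 159 CPM in MCF10A pLOC-empty and 163 and 155 CPM in MCF10A pLOC-*MALINC1*. These groups overlapped, and the log2 fold change of 0.016 (adjusted p = 0.749) had a 95% interval of -0.06 to 0.10. In DCIS.COM it was at 175 and 169 CPM with the empty vector and 120.2 and 124 CPM with *MALINC1*, without overlap, and fell by 0.50 on the log2 scale (SE 0.037, adjusted p = 4.15e-07). The difference between the responses was -0.51 (SE 0.052, adjusted p = 5.99e-06). The libraries measure *STAT3* mRNA and not phosphorylated protein.

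*SOCS3*, the inhibitor that STAT3 induces (chromosome 17, minus strand, 76352859 to 76356158), was low but followed the direction of *LIF* in each line. MCF10A pLOC-empty had 2.17 and 2.20 CPM (61 and 48 reads) and MCF10A pLOC-*MALINC1* had 4.47 and 3.92 CPM (158 and 102 reads). The groups were separate, with a log2 fold change of 0.94 (SE 0.17, adjusted p = 0.000616), under 2-fold, and 1.03 without MCF10A pLOC-*MALINC1* replicate 2. DCIS.COM pLOC-empty had 4.50 and 3.60 CPM (95 and 74 reads) and DCIS.COM pLOC-*MALINC1* had 1.29 and 1.14 CPM (42 and 36 reads). Both *MALINC1* libraries were lower than both controls, by a log2 fold change of -1.73 (SE 0.17, adjusted p = 5.32e-06). The response in DCIS.COM minus that in MCF10A was -2.67 on the log2 scale (SE 0.24, adjusted p = 2.32e-06).

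**Figure D2:**
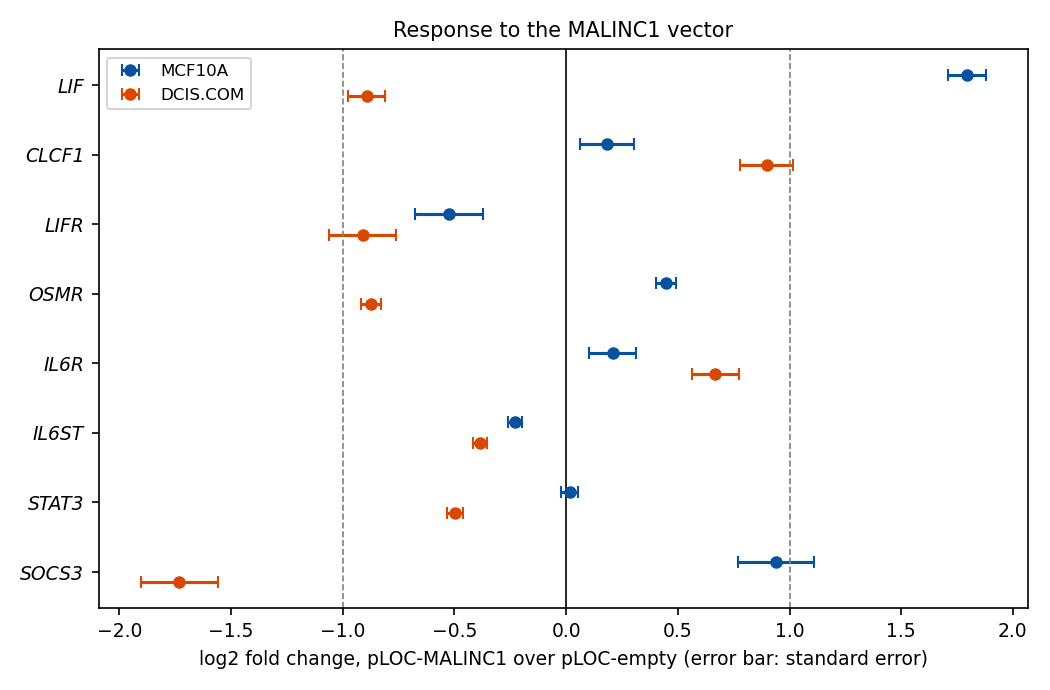
Log2 fold change of each member between pLOC-*MALINC1* and pLOC-empty, with its standard error, in MCF10A and in DCIS.COM; dashed lines mark 2-fold. *LIF*, *OSMR* and *SOCS3* lie above 0 in MCF10A and below 0 in DCIS.COM, and *LIF* in MCF10A (1.79) and *SOCS3* in DCIS.COM (-1.73) lie beyond 2-fold.

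Counted over the family, 1 of 8 members (*LIF*) was called up in MCF10A and 0 down, against 2.99% of all genes up and 2.51% down. At an adjusted p below 0.01 with any size of change, 3 members rose and 1 fell, against 21.5% and 18.1% of all genes. In DCIS.COM 0 members were called up and 1 (*SOCS3*) down, against 1.44% and 3.08% of all genes. With any size of change 2 rose and 6 fell there, against 16.4% and 16.7%. The median log2 fold change of the members was 0.20 in MCF10A, against 0.00 over all genes, and -0.69 in DCIS.COM, against 0.01 over all genes. For the difference between the responses, 1 member passed upward and 4 downward, against 15.6% and 20.3% of all genes.

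The cell lines themselves differed most in the 2 ligands and in *LIFR*. With the empty vector, *LIF* was higher in DCIS.COM than in MCF10A by 5.24 on the log2 scale (adjusted p = 3.24e-14) and *LIFR* by 2.59 (adjusted p = 4.96e-09). *CLCF1* was lower in DCIS.COM, by a log2 fold change of -4.30 (adjusted p = 4.10e-12). These were the 3 members called among the lines, 2 up and 1 down, against 15.6% of all genes up and 13.0% down. *SOCS3* (0.88) and *OSMR* (0.62) were higher in DCIS.COM by less than 2-fold, and *IL6R* (-0.28), *IL6ST* (-0.15) and *STAT3* (0.13) differed least. The comparison uses the same pLOC-empty libraries as the vector comparisons, so its values are not independent of them.

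With *MALINC1* in both lines, the difference in *LIF* was 2.55 on the log2 scale (adjusted p = 2.09e-11), that in *LIFR* 2.20 (adjusted p = 2.81e-08) and that in *CLCF1* -3.59 (adjusted p = 2.59e-11). *OSMR* (-0.70, adjusted p = 1.17e-08) and *SOCS3* (-1.79, adjusted p = 7.11e-07) were then lower in DCIS.COM, where they had been higher with the empty vector.

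**Figure D3:**
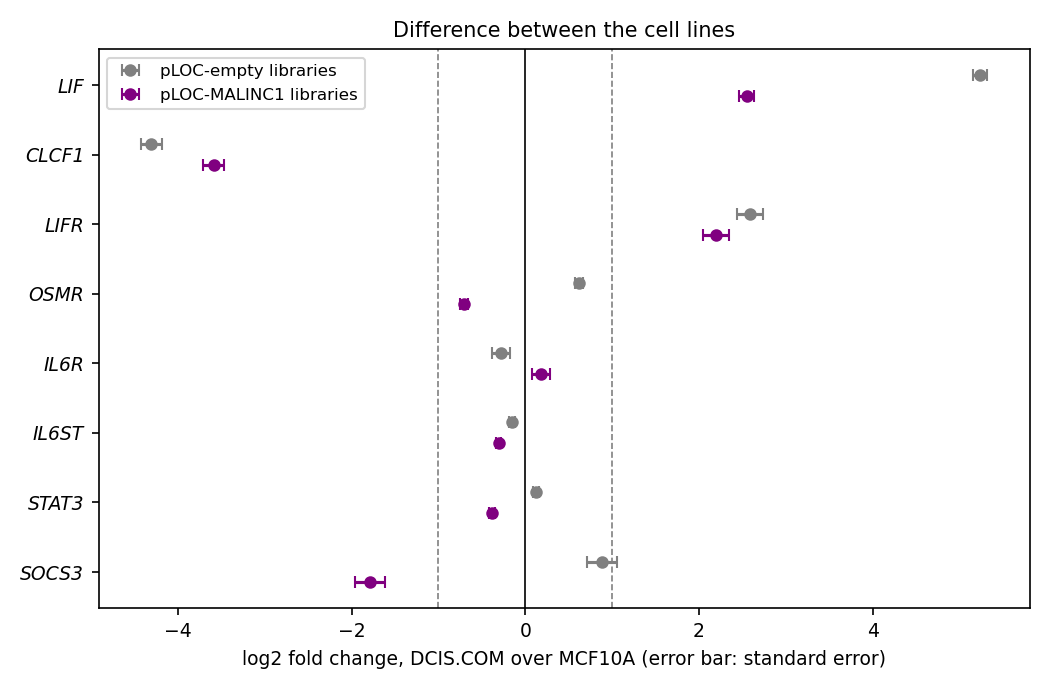
Log2 fold change of each member between DCIS.COM and MCF10A, with its standard error, for the pLOC-empty and the pLOC-*MALINC1* libraries; dashed lines mark 2-fold. *LIF* differs by 5.24 with the empty vector and by 2.55 with *MALINC1*, and *OSMR* and *SOCS3* change sign.

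Levels of different genes were compared per kilobase of the canonical GENCODE transcript. In MCF10A pLOC-empty the order was *STAT3* (32.0 CPM per kb), *IL6ST* (16.8), *OSMR* (13.0), *CLCF1* (12.8), *IL6R* (1.44), *LIF* (0.987), *SOCS3* (0.799) and *LIFR* (0.132), and the replicate ranges of *OSMR* and *CLCF1* overlapped. In DCIS.COM pLOC-empty *LIF* (37.2 CPM per kb) headed the order, followed by *STAT3* (34.9), *OSMR* (20.0), *IL6ST* (15.1), *SOCS3* (1.48), *IL6R* (1.19), *LIFR* (0.794) and *CLCF1* (0.651). The ligand *LIF* was thus sixth of 8 members in the first group and first of 8 in the other, while *LIFR* stayed low in both.

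The rest of the pathway was described by 6 lists with 86 genes, of which 71 were tested. In MCF10A 7 of them were called up and 3 down (9.86% and 4.23%, against 2.99% and 2.51% of all genes), and in DCIS.COM 1 was called up and 8 down (1.41% and 11.3%, against 1.44% and 3.08%). With any size of change, 25 rose and 14 fell in MCF10A (35.2% and 19.7%, against 21.5% and 18.1%), whereas 8 rose and 28 fell in DCIS.COM (11.3% and 39.4%, against 16.4% and 16.7%). The difference between the responses passed for 10 genes upward and 33 downward (14.1% and 46.5%, against 15.6% and 20.3%).

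Among other ligands 1 of 7 listed genes was tested, *IL12A*, a subunit that IL-12 shares with IL-35. It was at 0.209 and 0.204 CPM (4 and 3 reads) in MCF10A pLOC-empty and 0.629 and 0.827 CPM (20 reads in each) in MCF10A pLOC-*MALINC1*, a log2 fold change of 1.80 (adjusted p = 9.61e-05) on few reads. Of 4 tested genes among 7 other receptor chains, *IL31RA*, the IL-31 receptor, rose from 1.17 and 1.09 CPM to 4.45 and 4.79 CPM in MCF10A, by 2.03 on the log2 scale (adjusted p = 3.25e-05), and was at 4 to 7 reads per library in DCIS.COM. *STAT4*, the STAT factor of IL-12 signaling and the only call among 14 tested kinases, STATs and adaptors, fell in both lines, by 1.25 in MCF10A and 2.25 in DCIS.COM on the log2 scale.

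Of 17 negative regulators, 2 were called up in MCF10A, where 2.99% of all genes were, and 1 was called down in DCIS.COM, where 3.08% of all genes were. *CISH*, a SOCS family inhibitor, rose from 1.14 and 1.09 CPM to 3.22 and 3.66 CPM in MCF10A (log2 fold change 1.62, adjusted p = 9.64e-06) and had a log2 fold change of 0.05 (adjusted p = 0.859) in DCIS.COM. *PTPRE*, a tyrosine phosphatase, rose in MCF10A by 1.26 (adjusted p = 3.38e-06) and fell in DCIS.COM by 1.20 (adjusted p = 6.66e-06) on the log2 scale. Its libraries went from 6.28 and 6.31 to 14.7 and 15.6 CPM in MCF10A and from 12.8 and 14.8 to 5.31 and 6.78 CPM in DCIS.COM.

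Of 27 tested genes often named as STAT3 targets, 3 were called up and 2 down in MCF10A, against 2.99% and 2.51% of all genes, and 1 up and 5 down in DCIS.COM, against 1.44% and 3.08%. With any size of change, 11 rose and 8 fell in MCF10A, against 21.5% and 18.1% of all genes. In DCIS.COM 6 rose and 14 fell, against 16.4% and 16.7%. The genes named here were picked by size of change and leave out the 1 called up in DCIS.COM. The acute-phase genes *SAA1* and *SAA2*, whose close similarity makes the split of reads between them uncertain, fell most. *SAA1* was at 16.6 and 14.7 CPM (354 and 307 reads) in DCIS.COM pLOC-empty and 0.188 and 0.278 CPM (4 and 7 reads) in DCIS.COM pLOC-*MALINC1*, a log2 fold change of -6.10 (adjusted p = 4.13e-11). *SAA2* had a log2 fold change of -5.75 (adjusted p = 2.23e-10) there, and neither gene passed in MCF10A (*SAA1* 0.44, adjusted p = 0.0353, and *SAA2* 0.63, adjusted p = 0.0122). *NNMT*, a nicotinamide methyltransferase, fell in both lines, by 1.07 in MCF10A and by 2.86 in DCIS.COM on the log2 scale. *FOS*, an AP-1 subunit, rose in MCF10A from 3.93 and 4.10 CPM to 12.4 and 12.5 CPM, by 1.63 on the log2 scale (adjusted p = 8.70e-07), and had a value of -0.25 (adjusted p = 0.152) in DCIS.COM. Of 8 genes for receptor shedding and control of ligand mRNA, *ZC3H12A*, whose RNase product degrades *IL6* mRNA, fell in DCIS.COM from 26.8 and 26.3 CPM to 8.98 and 7.40 CPM, by 1.70 on the log2 scale (adjusted p = 1.78e-08).

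**Figure D4:**
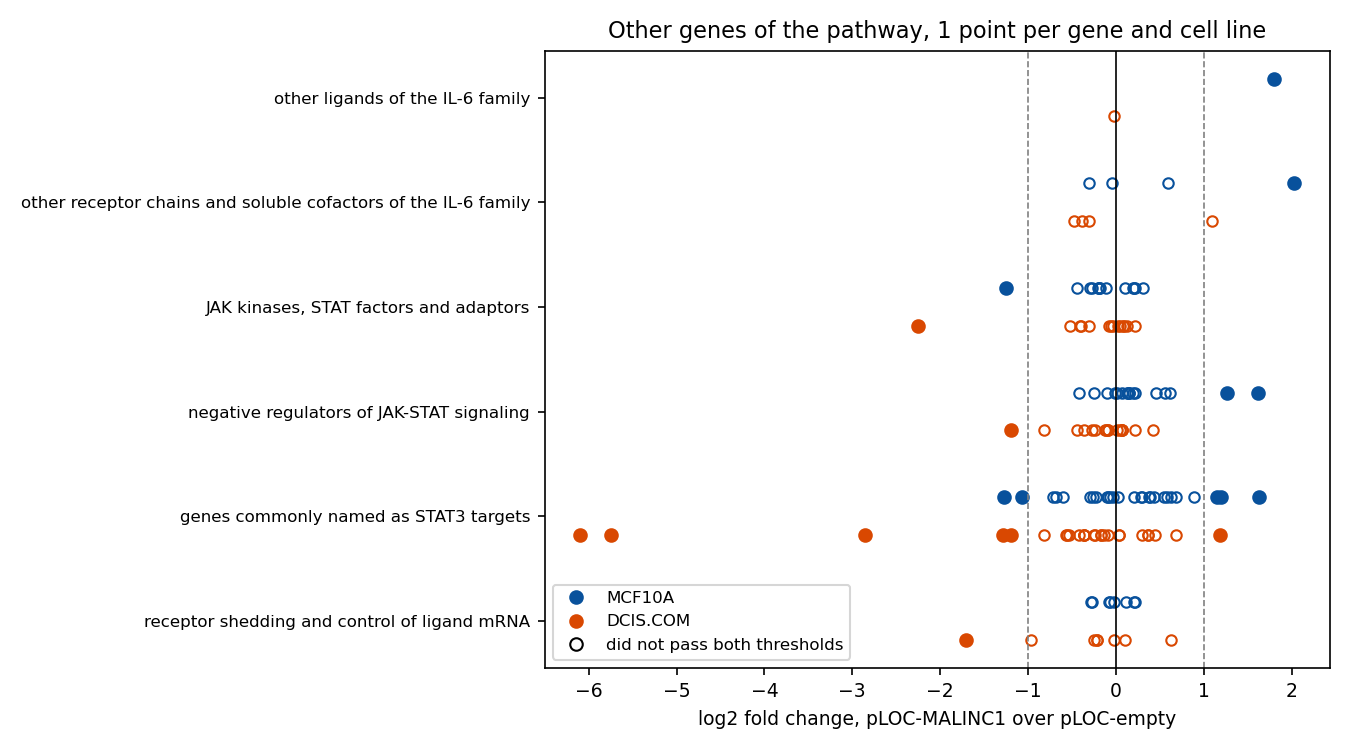
Log2 fold change of the 71 tested pathway genes between pLOC-*MALINC1* and pLOC-empty, by list and line. Filled points passed both thresholds and open points did not. The points farthest from 0 are *SAA1* and *SAA2* in DCIS.COM, at -6.10 and -5.75.

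Some markers of other cell types also changed, not all in the direction of *LIF*. The endothelial marker *PECAM1* was at 6.13 and 7.28 CPM in DCIS.COM pLOC-empty and 0.159 and 0.249 CPM in DCIS.COM pLOC-*MALINC1*, a log2 fold change of -5.07 (adjusted p = 1.13e-08). In MCF10A its log2 fold change of -0.40 did not pass (adjusted p = 0.197). The fibroblast marker *COL1A1* went from 15.2 to 15.9 CPM down to 6.68 to 7.45 CPM in MCF10A. In DCIS.COM its log2 fold change of -0.32 did not pass (adjusted p = 0.0599). The summed level of the leukocyte markers *CD14* and *CD68* went from 4.25 to 4.34 CPM up to 8.04 to 8.27 CPM in DCIS.COM. In MCF10A the sum was 14.2 to 14.4 CPM with the empty vector and 13.1 to 13.9 CPM with *MALINC1*. The log2 fold changes of *CD14* (0.55, adjusted p = 0.0194) and *CD68* (-0.31, adjusted p = 0.0215) in MCF10A had opposite signs, and neither passed. *TP63*, the basal epithelial regulator, changed most in MCF10A among the markers listed for basal breast epithelium. It rose there by 3.04 on the log2 scale (adjusted p = 1.08e-11). In DCIS.COM it had a value of -0.19 (adjusted p = 0.0291), which did not pass. The part of these markers in the results for the family was not tested.

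The genes whose log2 CPM over the 8 libraries were most like that of *LIF* were *AHCY*, *JAG2* and *CHSY1* (Pearson r of 0.998 each), followed by *TRIB1* and *CLDN1* (0.997 each), among 13841 genes compared. The 8 points share the split into 2 cell lines, so the values are a description. *AHCY*, an enzyme of methionine metabolism, was at 162 CPM in MCF10A pLOC-empty, 233 CPM in MCF10A pLOC-*MALINC1*, 463 CPM in DCIS.COM pLOC-empty and 408 CPM in DCIS.COM pLOC-*MALINC1* (means of 2 libraries).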

How the data were processed

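RNA-seq was performed on 8 libraries of transduced MCF10A and DCIS.COM cells. According to the study's methods and processing notes, the authors aligned 76 nt paired-end reads to hg19 with Rsubread, counted them with featureCounts and used edgeR to normalize them. The deposited unit is log2 CPM, computed with 2 as prior count. The versions and the strand setting are not given in the sources used here, so reads from overlapping antisense genes cannot be told apart. Whole reads were recovered from these log2 values for 100% of entries within 0.1 read, and they show the depth behind each level. A gene without reads is listed at 0.0713 CPM.

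R 4.3.3 and limma 3.58.1 were used to fit the log2 CPM (a mean for each of the 4 groups, eBayes with a trend, Benjamini-Hochberg adjustment over all 13842 genes), which has no count model. A gene needed 0.5 CPM in 2 libraries to be tested. Calls needed more than 2-fold change with an adjusted p below 0.01, as in the study's methods, and the difference between the responses an adjusted p below 0.01. The steps were tested on simulated data. Summaries and plots used matplotlib 3.10.9, pandas 2.3.3 and numpy 2.4.6 under Python 3.11.15. The members and lists were chosen with earlier results of these data known. The pathway genes named are those of each list that were called in at least 1 line and reached 1 CPM in the higher group, at most 4 a list, beside *MALINC1* and the 5 genes most like *LIF*. The alternatives changed the pseudocount, filter, scaling, model, block and thresholds, and left out each library in turn. Some of them could change little: all 13842 genes passed the filter, so dropping it repeated the main fit. A changed threshold reused the values of the main fit. Leaving out a library of the other line kept the fold change within a line. Positions are from GENCODE on GRCh37, matched by symbol.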

Additional observations from a re-analysis of the deposited data

Results flagged for a closer look

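The response to *MALINC1* differed between DCIS.COM and MCF10A for 14 of the members and pathway genes named, by the interaction contrast of the limma fit. Passing this contrast was common: 20.3% of all 13842 genes had the lower response in DCIS.COM and 15.6% the higher one. The pathway genes were named because they were called in at least 1 line, which makes a difference between the lines more likely. Their number is therefore not set against these percentages. Of all 71 tested pathway genes, 46.5% had the lower response in DCIS.COM and 14.1% the higher one. The named genes *LIFR*, *IL6R*, *IL6ST* and *STAT4* did not pass (adjusted p = 0.153, 0.0228, 0.0139 and 0.0118). The values below are the log2 response in DCIS.COM minus that in MCF10A. Among the members, *LIF* (-2.69, adjusted p = 3.06e-09), *SOCS3* (-2.67, adjusted p = 2.32e-06), *OSMR* (-1.32, adjusted p = 6.10e-09) and *STAT3* (-0.51, adjusted p = 5.99e-06) had the lower response in DCIS.COM, and *CLCF1* (0.71, adjusted p = 0.00399) had the higher one. Of the pathway genes, the acute-phase genes *SAA1* (-6.54, adjusted p = 4.40e-10) and *SAA2* (-6.37, adjusted p = 1.55e-09) differed most. The differences were -2.46 for *PTPRE* (adjusted p = 2.25e-07), -2.33 for *IL31RA* (adjusted p = 0.000194), -1.88 for *FOS* (adjusted p = 5.78e-06), -1.82 for *IL12A* (adjusted p = 0.00135), -1.82 for *ZC3H12A* (adjusted p = 2.16e-07), -1.79 for *NNMT* (adjusted p = 4.92e-07) and -1.58 for *CISH* (adjusted p = 0.000236). The contrast also passed for the markers *PECAM1* (-4.67, adjusted p = 4.82e-07), *TP63* (-3.23, adjusted p = 1.07e-10), *CD68* (1.27, adjusted p = 1.34e-05) and *COL1A1* (0.82, adjusted p = 0.00261). Other genes on the epithelial marker list passed as well: *KRT14* (-1.60), *KRT17* (-0.58), *EPCAM* (-0.56), *ITGA6* (-0.49), *ITGB4* (-0.30) and *CDH1* (0.47). The markers *KRT5*, *KRT6A* and *CD14* did not pass (adjusted p = 0.0876, 0.0416 and 0.627). The 5 genes most like *LIF* were chosen by their values in these same libraries, so their differences are a description with no test: -0.71 for *AHCY*, -0.71 for *JAG2*, -0.47 for *CHSY1*, -0.69 for *TRIB1* and -0.82 for *CLDN1*. Groups of 2 libraries are too small for a check of single libraries that stand apart.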

How the results depend on the processing

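Of 1425 alternative values for 73 results on single genes, 1361 kept their direction and their side of the threshold, 22 no longer passed, 32 newly passed and 10 changed sign. *LIF* and *SOCS3* passed an adjusted p of 0.01 in both lines whichever library was left out. The members called in MCF10A numbered 1 to 2 with libraries left out (2 without MCF10A pLOC-*MALINC1* replicate 2, which takes *SOCS3* past 2-fold) and 2 at 1.5-fold. In DCIS.COM they numbered 1 to 2 with libraries left out (2 without DCIS.COM pLOC-*MALINC1* replicate 1, which takes *LIF* past 2-fold), 2 with quantile normalization (*CLCF1* up, *SOCS3* down) and 6 at 1.5-fold (2 up, 4 down). Between the lines with the empty vector, 5 were called at 1.5-fold (4 up, 1 down). *STAT3* in MCF10A had values of -0.040 with quantile normalization, -0.012 without the 7SL reads, -0.0027 without MCF10A pLOC-empty replicate 1 and -0.020 without MCF10A pLOC-*MALINC1* replicate 1, in a range of -0.020 to 0.052 over left-out libraries. In DCIS.COM, *IL12A* had 0.058 with quantile normalization, 0.14 without DCIS.COM pLOC-empty replicate 2 and 0.15 without DCIS.COM pLOC-*MALINC1* replicate 2 (range -0.18 to 0.15), *IL31RA* had 0.075 with quantile normalization, and *CISH* had -0.038 without the 7SL reads and -0.066 without DCIS.COM pLOC-empty replicate 1 (range -0.066 to 0.16). None of these sign changes was of a called value, and the cause was not tested. Fitted without the other line, *CLCF1* and *IL6R* no longer passed in DCIS.COM (adjusted p = 0.0103 and 0.0146). Over all genes, the 761 calls in MCF10A became 416 with log2(CPM + 1) and 1814 at 1.5-fold, the 627 in DCIS.COM 368 and 1317, and the 3959 between the lines 6484 at 1.5-fold. With the replicate block, 1 member was called in MCF10A, 1 in DCIS.COM, 3 between the lines and 5 for the difference in response. Same-numbered deviations correlated at -0.067 in MCF10A and 0.035 in DCIS.COM over all genes, so no shared shift by replicate number was seen. These values cannot tell whether same-numbered libraries were prepared together, which the labels do not state. Every library had 20604377 reads or more, yet *IL12A*, *IL31RA* in DCIS.COM, and *SAA1* and *SAA2* after their fall stood at few reads. Among the members and pathway genes named, *IL12A* (SE 0.26) and *IL31RA* (SE 0.25) had the widest standard errors of the vector response. Those of *SAA1* (0.16) and *SAA2* (0.18) were narrower than that of *STAT4* (0.20). The fit gives a gene the same standard error in both lines, so it does not widen where reads are few.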
